A study of Mus musculus with 173 samples.

Results

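Transcripts of 10 genes of the epididymis were followed through the white fat around the gonad and 10 other tissues of Q175 mice. The 10 genes, Serpina1f, Crisp1, Spink8, Lcn5, Lcn8, Lcn9, Adam7, Ovch2, Cst8 and Rnase10, are 10 of 38561 genes in the deposited tables. They were chosen from values measured in these libraries as transcripts of the epididymis, so their levels, fitted differences and calls are given as a description from which nothing is read. Of these, 5 (Serpina1f, Crisp1, Spink8, Lcn5 and Adam7) were abundant in 1 or more of the 4 gonadal fat libraries of Q175 males. The other 5 stayed at low counts in all 15.

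The survey holds 173 polyadenylated RNA libraries from 11 tissues of 16 C57BL/6 mice aged 6 months. Of the mice, 8 are heterozygous for the Q175 knock-in allele, with 175 CAG repeats in the mouse huntingtin gene Htt, and 8 are wild type (WT). Gonadal fat has libraries from 4 Q175 males, 4 WT males, 4 Q175 females and 3 WT females. In the labels the cage mates of the Q175 mice were Q175 mice and those of the WT mice were of the Q20 line, while the design text calls the WT mice littermates, so genotype, housing and colony cannot be told apart. No label says that a sample was pooled or how the fat was trimmed from the organs beside it, and each library is taken as 1 animal from the code in its name.

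The epididymis is a coiled duct through which sperm leave the testis and in which they mature. It is divided into an initial segment, caput, corpus and cauda, and many of its secreted proteins are made in a single stretch of the duct. In male mice the gonadal fat pad lies against this duct, while in females it lies beside the ovary and uterus. Crisp1 is a cysteine-rich secretory protein that coats sperm. Serpina1f belongs to the serine protease inhibitors of the alpha-1-antitrypsin family, and Spink8 to the Kazal type inhibitors. Lcn5, Lcn8 and Lcn9 are lipocalins, small carriers of lipid-like molecules, and in mice Lcn5 is made in the caput and Lcn8 in the initial segment. Adam7 is a membrane protein of the ADAM family that is passed to sperm, and Ovch2 is a protease-like protein of the caput. Cst8 is a cystatin and Rnase10 a ribonuclease-like protein of the initial segment.

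Crisp1 and Serpina1f were both high in Q175 males 2 and 3. Of the neighbouring lipocalin genes, Lcn5 was highest in Q175 male 1 and Lcn8 was not above 2 counts in any gonadal fat library. The promoters of these 4 genes are shown as examples. Each runs 5′ to 3′ along the strand of the gene, 250 bases before to 50 bases after the transcription start, from RefSeq on build GRCm38.p6. Of the 10 genes, 8 have an entry there. Spink8 and Adam7 do not. Capitals mark the TATA box letters TATAAA and, in Crisp1, the half-site letters AGAACA of the androgen receptor element.
Crisp1, chr17:40319158-40319457, minus strand: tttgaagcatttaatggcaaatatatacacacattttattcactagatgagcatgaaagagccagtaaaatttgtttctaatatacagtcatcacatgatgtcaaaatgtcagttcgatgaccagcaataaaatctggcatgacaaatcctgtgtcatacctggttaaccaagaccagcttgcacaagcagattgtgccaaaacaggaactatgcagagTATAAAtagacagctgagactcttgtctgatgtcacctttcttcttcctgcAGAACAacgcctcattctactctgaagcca
Serpina1f, chr12:103695480-103695779, minus strand: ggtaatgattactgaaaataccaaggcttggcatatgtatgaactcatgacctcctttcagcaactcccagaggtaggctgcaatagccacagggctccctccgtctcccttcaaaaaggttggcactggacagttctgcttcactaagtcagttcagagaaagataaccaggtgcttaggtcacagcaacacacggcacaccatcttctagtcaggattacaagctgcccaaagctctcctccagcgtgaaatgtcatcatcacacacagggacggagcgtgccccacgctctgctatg
Lcn5, chr2:25657702-25658001, plus strand: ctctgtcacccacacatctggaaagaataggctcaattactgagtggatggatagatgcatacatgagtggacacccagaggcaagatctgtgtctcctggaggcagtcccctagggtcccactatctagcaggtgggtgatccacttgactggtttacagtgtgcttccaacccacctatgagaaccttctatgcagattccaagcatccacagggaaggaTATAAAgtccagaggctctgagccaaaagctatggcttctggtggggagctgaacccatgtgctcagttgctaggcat
Lcn8, chr2:25652868-25653167, plus strand: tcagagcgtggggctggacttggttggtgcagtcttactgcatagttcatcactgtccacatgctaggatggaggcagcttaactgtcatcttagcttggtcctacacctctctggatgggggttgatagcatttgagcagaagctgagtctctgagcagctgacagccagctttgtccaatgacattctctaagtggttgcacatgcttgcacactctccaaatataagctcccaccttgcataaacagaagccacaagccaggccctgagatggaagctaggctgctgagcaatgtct
On both strands TATAAA was found in 2 of the 8 promoters, 28 bases before the start in Lcn5 and 31 bases before it in Crisp1, and in 13.6% of 32851 promoters. AGAACA was found in 3 of the 8, Crisp1, Lcn9 and Rnase10, and in 18.97% of all promoters. The 2 motifs share no letters in these windows, and other motifs that were looked at are not reported. A match is a description of letters and does not show a site in use.

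Crisp1 carried the largest amount of RNA of the 10 in Q175 males 2, 3 and 4. Its estimated counts were 378, 119274, 72574 and 26979 in Q175 males 1 to 4, against 40, 5, 62 and 38 in WT males 1 to 4. All Q175 males lay above all WT males. In Q175 males 2 and 3 its FPKM (reads scaled to gene length and depth) of 2390 and 1344 placed it at rank 19 and 34 of all genes, and in Q175 male 1, at 7.18 FPKM, it was at rank 8355. The fitted difference was 10.44 ± 1.75 log2 (edgeR over all 15 libraries). For edgeR differences the value after ± is an SE worked back from the log2 fold and the F statistic. In females Crisp1 had 8, 0, 65 and 151 counts in Q175 females 1 to 4 and 0 in 3 of 3 WT females.

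Serpina1f had counts of 269, 30738, 19431 and 1505 in Q175 males and of 2, 0, 15 and 3 in WT males. Its fitted difference was 11.18 ± 1.79 log2. Q175 males 2 and 3 again held the most. In females it reached 20 and 40 counts in Q175 females 3 and 4, 1 and 0 in Q175 females 1 and 2, and 0 in the WT females.

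Spink8 had counts of 625, 15225, 9355 and 5240 in Q175 males and of 9, 1, 18 and 10 in WT males, a fitted difference of 9.53 ± 1.07 log2. Q175 male 1 was the lowest of its group. Among Q175 females it had 4, 0, 5 and 16 counts, and the WT females had 0.

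Adam7 had another order among the Q175 males, with counts of 2888, 156, 135 and 4235 in Q175 males 1 to 4 and of 2, 3, 1 and 2 in WT males. The fitted difference was 9.73 ± 1.69 log2, which rests on WT counts of 1 to 3. Here Q175 males 1 and 4 held the most. No female library had a count of it.

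Lcn5 was mainly a transcript of 1 library: its counts were 681, 47, 41 and 3 in Q175 males 1 to 4, against 0, 0, 1 and 0 in WT males. On FPKM the 4 Q175 males held 26.5, 1.93, 1.55 and 0.14. Females had 0 counts in every library. A fold is not given because 3 of the 4 WT males were at 0, a value for which 3 counts is the limit that depth allows.

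The remaining 5 genes stayed low. Ovch2 had 9, 2, 2 and 6 counts in Q175 males and 0 in WT males and females. Cst8 had 1, 8, 2 and 0 in Q175 males and 0, 6, 0 and 0 in WT males. Lcn8 had at most 2 counts in a Q175 male and 1 in a WT male, and Lcn9 had none in any of the 15 libraries. Rnase10 had 17, 28, 13 and 11 counts in Q175 males, 5, 17, 12 and 2 in WT males, 15, 41, 3 and 9 in Q175 females and 15, 16 and 4 in WT females, so its groups overlap and its fitted difference between male groups was 0.82 ± 0.73 log2.

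**Figure D1:**
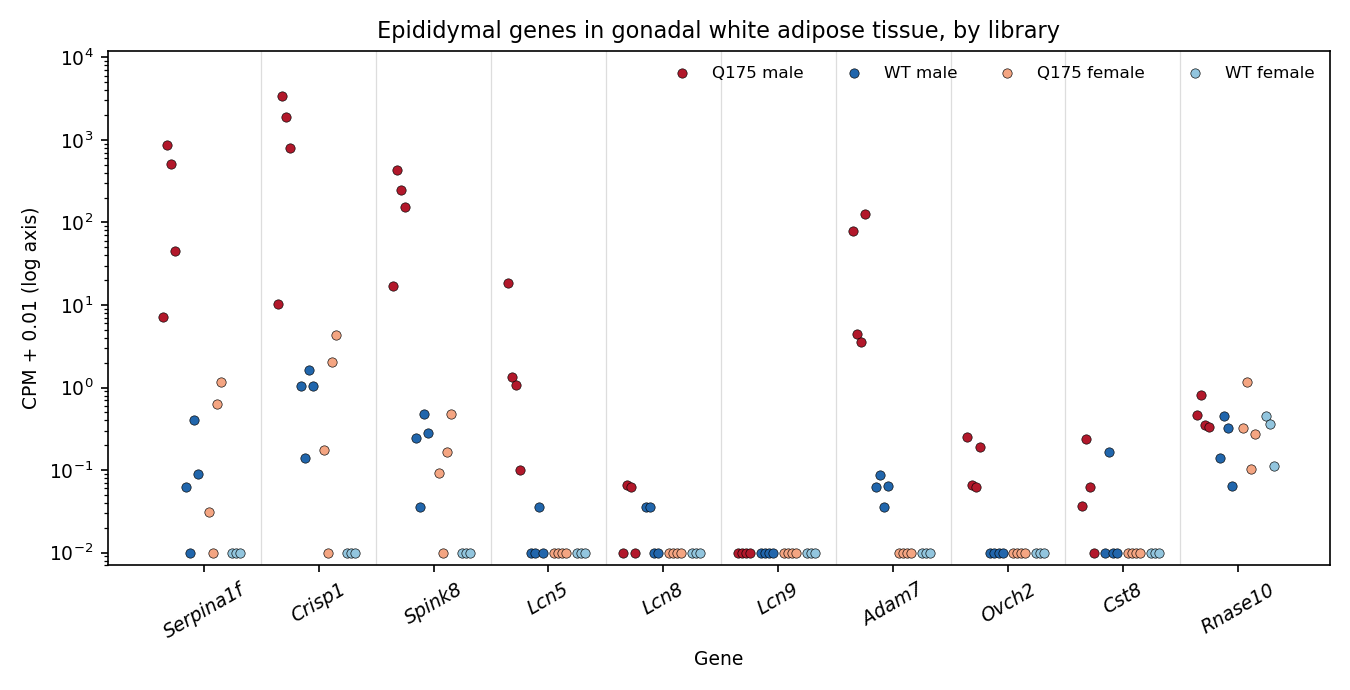
CPM (counts scaled to the library total, with 0.01 added so that 0 can be drawn on the log axis) of the 10 genes in each of the 15 gonadal fat libraries, 1 point a library, in the order Q175 males, WT males, Q175 females and WT females within each gene. Serpina1f, Crisp1, Spink8, Lcn5 and Adam7 lie above the WT males in every Q175 male, Ovch2 does at single counts, and Rnase10 overlaps between all groups.

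Over the 10 genes the summed level was 130.9, 4695, 2662 and 1128 CPM in Q175 males 1 to 4, against 1.53, 0.854, 2.84 and 1.48 CPM in WT males. In females it was 0.583, 1.15, 2.92 and 6.25 CPM in Q175 libraries and 0.441, 0.354 and 0.101 CPM in WT libraries. The 10 genes made up 0.470% of all counts in Q175 male 2 and 0.0131% in Q175 male 1. In these bulk libraries fewer cells of a type and less RNA per cell cannot be told apart.

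The make-up of the sum differed between the Q175 males. By summed FPKM, Crisp1 was 67.1%, 66.5% and 65.4% of the 10 genes in Q175 males 2, 3 and 4, and 8.36% in Q175 male 1. Q175 male 1 was split between Lcn5 (30.9%), Spink8 (28.7%) and Adam7 (26.1%). Serpina1f was 15.5% and 15.98% in Q175 males 2 and 3, and 3.29% in Q175 male 4. Q175 males 2 and 3 were nearly alike in proportion while male 2 held the larger sum. Per 100 counts of Crisp1, Serpina1f had 71.2, 25.8, 26.8 and 5.58 in Q175 males 1 to 4, and Adam7 had 764, 0.131, 0.186 and 15.7.

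**Figure D2:**
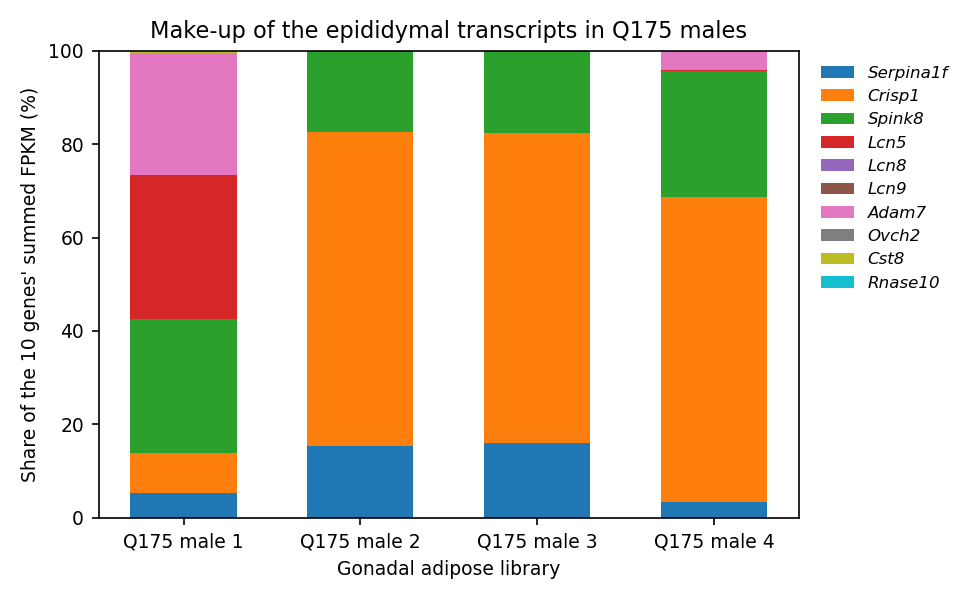
Share of each of the 10 genes in their summed FPKM, in percent, for the 4 Q175 male libraries, with 1 bar a library. Crisp1 holds 65.4% to 67.1% in Q175 males 2, 3 and 4 and 8.36% in Q175 male 1, where Lcn5, Spink8 and Adam7 take most of the bar.

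Over the 8 male libraries, as a description of libraries that share a tissue and 2 groups, the log2 levels of Serpina1f, Crisp1 and Spink8 correlated with Pearson's r of 0.980 to 0.983 between pairs. Lcn5 and Crisp1 had an r of 0.453, and Adam7 and Crisp1 one of 0.672. The genes outside the 10 with the most similar pattern were Col17a1 (0.995), Bcl2l15 (0.993), Tox3 (0.991), Trex1 (0.991), Krt5 (0.990), Tnfrsf11a (0.989), Pcyt1b (0.988), F8 (0.988), Cdk5rap2 (0.987) and Nhlrc3 (0.987), by r with the mean log2 level of the 10 genes over the 8 libraries. Krt5, a keratin of basal epithelial cells, had 2.61, 8.002, 4.61 and 1.75 CPM in Q175 males and 0 CPM in WT males. Trex1, an exonuclease, had 8.44 to 9.05 CPM in Q175 males and 6.28 to 6.78 CPM in WT males. The other 8 likewise lay higher in every Q175 male than in every WT male. Of 14674 genes compared, 1157 (7.88%) had an r of at least 0.9, so likeness of this size is common where the 2 groups part.

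Among all genes with a count, 17.5% of 26503 lay higher in every Q175 male than in every WT male and 2.35% lay lower. The 6 of the 10 genes that lay higher were Serpina1f, Crisp1, Spink8, Lcn5, Adam7 and Ovch2, and the count is part of how the genes were noticed. In the fit, 6 of the 10 passed the filter on low counts (Lcn8, Lcn9, Ovch2 and Cst8 did not). Among the 6, Lcn5 and Adam7 passed only through the Q175 males, the group where they are high. Of these 6, 5 were called higher in Q175 males and 0 lower at an adjusted p under 0.05, and Rnase10 was not called. For all 17438 genes tested the shares called were 11.9% higher (2081 genes) and 12.9% lower (2254 genes). Nothing is read from the members' count, because the choice of genes used this contrast. On deposited FPKM values 4767 genes were called higher and 728 lower, with a median difference over all genes of 0.14 log2 against 0.04 in the main fit, and with the L code of the library name as a term 551 were higher and 371 lower.

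Males against females was the other contrast, with 16.6% of genes called higher in males (2889) and 15.1% lower (2629), or 5002 and 1285 on FPKM values. Crisp1 and Spink8 were called higher among the 6 genes that passed the filter, at 8.96 ± 1.86 and 8.20 ± 1.75 log2. Serpina1f was at 7.46 ± 3.35 and Rnase10 at -0.28 ± 0.53, and neither was called. Adam7 and Lcn5 were not called either, and no fold is given for them because every female library was at 0 counts. Nothing is read from these calls either, because the high genes were chosen for their levels in the Q175 males. Adam7 was the single gene of the 10 that lay higher in every male than in every female, as 2.58% of all genes with a count did. The male mean joins the high Q175 males with the low WT males.

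The library names carry an L code whose meaning no source gives: it is L2, L2, L2 and L3 for Q175 males 1 to 4 and L8, L1, L2 and L3 for WT males 1 to 4. Within L2 the counts of Crisp1 were 378, 119274 and 72574 in Q175 males 1, 2 and 3, against 62 in WT male 3, and within L3 they were 26979 in Q175 male 4 against 38 in WT male 4. The 2 Q175 females with 65 and 151 counts of Crisp1 are also L2 and L3, those with 8 and 0 are L8 and L71, a name that lacks the D part of the others and was a level of its own in the fit, and the WT females, at 0, are L1. Per 100 counts of Crisp1, Serpina1f within L2 had 71.2, 25.8 and 26.8 in Q175 males 1, 2 and 3. It had 24.2 in WT male 3 and 30.8 in Q175 female 3. Within L3 it had 5.58 in Q175 male 4, 7.89 in WT male 4 and 26.5 in Q175 female 4. Spink8 within L2 had 165, 12.8 and 12.9 in the Q175 males, 29.03 in WT male 3 and 7.69 in Q175 female 3. Within L3 Spink8 had 19.4 in Q175 male 4, 26.3 in WT male 4 and 10.6 in Q175 female 4. In WT males 3 and 4 and Q175 females 3 and 4 these ratios rest on 3 to 40 counts of Serpina1f and 5 to 18 of Spink8. Within L2 nearly all counts of Crisp1 were in Q175 males 2 and 3, and nothing is read from the ratios. With the L code as a term, 1 of the members was called higher between the male groups, where 3.16% of all genes were called higher and 2.13% lower. In that fit 0 members were called between the sexes, where 9.42% of all genes were called higher and 6.9% lower. The part of the L code in the low counts of the other groups was not tested.

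WT male 1 held 1022 counts of Xist, the transcript of the silenced X chromosome, against 14 to 49 in the other 7 males and 22276 to 39250 in females, while its Ddx3y, a Y-linked gene, was at 3652 within the male range of 2946 to 4037. Without this library 5 of the members were called between the male groups and 2567 genes in all. Depth did not separate the groups: totals in gonadal fat ran from 31.8 to 48.02 M estimated counts, and in all libraries from 27.98 M. Htt, the altered gene, had 73.4, 74.2, 76.5 and 69.6 CPM in Q175 males and 53.4, 58.4, 83.9 and 63.6 CPM in WT males. Adipoq, the adipocyte hormone, was at 1950 to 2976 CPM in Q175 males and 2548 to 4004 CPM in WT males, and it was thus high in every library of males. Nothing says that libraries of 1 group came from separate litters.

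A list of 47 other genes of the epididymis, also chosen with results of these data known, showed which further transcripts of the organ were present. Of these, 19 passed the filter on low counts and 16 were called higher in Q175 males, 0 lower, against 11.9% and 12.9% of all genes. Genes such as Spink11, at 0 in every WT male, passed only through the Q175 males and had to differ, so nothing is read from this count or from the calls of single genes in it. Their summed level was 141 to 684 CPM in Q175 males and 1.25 to 3.16 CPM in WT males. Between the sexes 13 of the 19 were called higher and 0 lower, from which likewise nothing is read.

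The genes differed in which Q175 male held them. Of 37 genes with over 20 counts in a Q175 male, 16 were highest in Q175 male 1, 16 in Q175 male 4 and 5 in Q175 male 2. Gpx5, a glutathione peroxidase secreted by the caput, had 17206, 20, 15 and 3 counts in Q175 males 1 to 4, against 0, 0, 4 and 0 in WT males. Spag11b, a defensin-like gene of the epididymis, had 3306, 0, 0 and 1 in Q175 males and 0 in WT males. Lcn6 and Lcn10, lipocalins like Lcn5, had 98 and 118 counts in Q175 male 1 and 0 in every other gonadal library. These 4 genes were thus nearly all in the library where Lcn5 was highest.

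In Q175 male 4 other genes led. Ces5a, a carboxylesterase of the epididymis, had 758, 272, 209 and 5431 counts in Q175 males 1 to 4, against 16.6, 2.25, 0 and 10 in WT males (7.84 ± 1.35 log2). Wfdc13, a small protease inhibitor of the WAP family, had 33, 125, 71 and 3351 in Q175 males and 2, 0, 1 and 2 in WT males. Crisp4, a relative of Crisp1, had 12, 6, 5 and 165 in Q175 males and 0 in WT males.

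In Q175 males 2 and 3 Defb42, a beta-defensin, was the highest of the list, with 498, 5547, 3611 and 201 counts in Q175 males 1 to 4, against 0, 13.1, 4 and 1 in WT males (8.92 ± 1.19 log2). Wfdc15b had 85, 989, 566 and 756 in Q175 males and 0, 10, 0 and 4 in WT males, so it was high in male 4 too. Spink11, a relative of Spink8, had 434, 542, 365 and 10 in Q175 males and 0 in WT males. Rnase12 had 46, 113, 67 and 381 in Q175 males and 0, 3, 2 and 1 in WT males (6.54 ± 0.95 log2). The 3 tested genes that were not called were Ly6g5b, with 19 to 50 counts in Q175 males and 16 to 32 in WT males, Tmem114, with 13 to 16 in Q175 males and 5 to 31 in WT males, and Teddm2, with 4 to 15 in Q175 males and 2 to 9 in WT males, so their groups overlap.

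**Figure D3:**
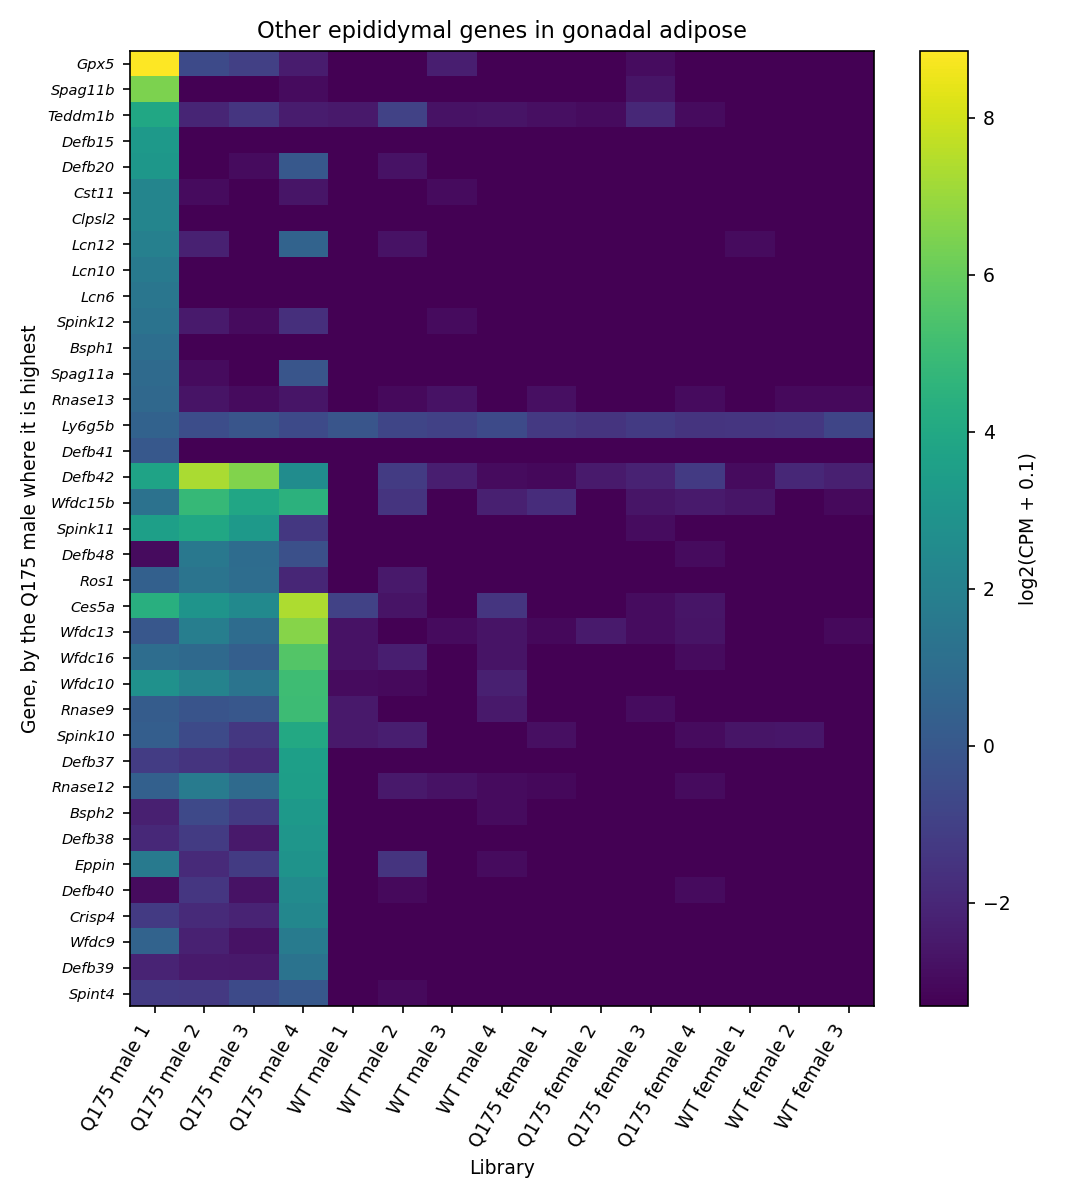
log2(CPM + 0.1) of the 37 other epididymal genes with over 20 counts in a Q175 male, with a row a gene, grouped by the Q175 male where it is highest, and a column a gonadal fat library. The 16 rows led by Gpx5 are bright in Q175 male 1, the 16 led by Ces5a in Q175 male 4 and the 5 led by Defb42 in Q175 male 2, while WT males and females stay mostly dark apart from Ly6g5b.

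Markers of other tissues that a dissected pad could hold were summed in the same libraries. Simple epithelium markers lay at 419, 469, 373 and 164 CPM in Q175 males 1 to 4, against 14.6, 148, 50.3 and 27.9 CPM in WT males. Of the 16 epithelial genes 10 were called higher and 0 lower, against 11.9% and 12.9% of all genes. Grhl2, an epithelial transcription factor, had 71, 533, 337 and 65 counts in Q175 males and 0, 12, 0 and 3 in WT males (5.90 ± 1.08 log2). Grhl2 and others of the list, such as Rab25, passed the filter on low counts only through the Q175 males. Nothing is read from their calls or from the number called in the list. Cdh1, the epithelial cadherin, changed by 4.17 ± 1.06 log2. Smooth muscle markers summed to 1082, 5563, 3663 and 682 CPM in Q175 males and 756, 698, 830 and 543 CPM in WT males. Of 12 smooth muscle genes 7 were called higher and 0 lower, against the same shares of all genes. Actg2, smooth muscle actin, had 355, 12488, 8139 and 116 counts in Q175 males and 201, 231, 241 and 113 in WT males. The summed smooth muscle level was highest in the 2 libraries, Q175 males 2 and 3, where the 10 genes were highest.

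Adipocyte markers went the other way: they summed to 29669, 26569, 29259 and 32420 CPM in Q175 males and 38107, 41979, 40796 and 41478 CPM in WT males. Of 12, 0 were called higher and 7 lower, against 11.9% and 12.9% of all genes. Fabp4 was at -0.96 ± 0.17 log2 (adjusted p = 0.00282 with edgeR) and Adig at -0.96 ± 0.12 (adjusted p = 0.000984 with edgeR). Lymph node markers summed to 240, 131, 149 and 127 CPM in Q175 males and 55.6, 37.3, 64.2 and 42.6 CPM in WT males, with Cr2 and Ms4a1 called higher among 12. Most of that sum was a single gene, Ccl21a, which was not called. It had 8350, 3824, 4750 and 3685 counts in Q175 males and 1329, 1008, 1996 and 975 in WT males. Other genes of the list overlapped, such as Cd79a (76 to 129 counts against 57 to 158) and Cd3g (44 to 65 against 41 to 98). The part of any of these in the differences of the 10 genes was not tested.

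Of the lists for other parts of the male tract, the seminal vesicle and prostate list had 5 tested genes with 1 called: Ceacam10, at 210, 364, 240 and 577 counts in Q175 males against 0, 4, 1.004 and 2 in WT males (7.48 ± 0.72 log2). Ceacam10 passed the filter on low counts only through the Q175 males, so nothing is read from its call. The seminal vesicle secretion genes Svs2 and Svs4 were at 0 in Q175 males 1 and 4, at 57 and 34 (Svs2) and 42 and 21 (Svs4) in Q175 males 2 and 3, and at 21 each in WT male 2, the only WT male with a count of them. Multiciliated cell markers, such as those of cells lining efferent ducts and oviduct, summed to 303, 33.9, 94.7 and 80.1 CPM in Q175 males and 8.97, 102, 8.52 and 27.8 CPM in WT males, and with edgeR 0 of 11 were called (3 at an unadjusted p under 0.05, and 1 called higher with DESeq2). Testis germ cell markers summed to 57.3, 36.97, 46.3 and 31.3 CPM in Q175 males and 25.03, 93.2, 20.8 and 21.4 CPM in WT males, with 0 of 19 called by edgeR (1 at an unadjusted p under 0.05, 0 with DESeq2). Hspa2 and Sycp3 held most of this sum in some libraries, with 611 and 278 of 963 counts in WT male 1, and females summed to 18.6 to 36.8 CPM. Prm2 had 77, 19, 63 and 22 counts in Q175 males and 10, 562, 0 and 7 in WT males. By edgeR 0 of 6 testis somatic genes were called (2 at an unadjusted p under 0.05, 0 with DESeq2) and 0 of 9 mesothelium genes (1 at an unadjusted p under 0.05, 0 with DESeq2). The oviduct and uterus list had 2 of 6 called higher, Ltf and Pax8, of which Pax8 is also a gene of the male duct: it had 1052, 1997, 1559 and 480 counts in Q175 males, against 2, 262, 2 and 37 in WT males. The ovary list had 1 of 4 called lower, Amhr2 (-0.86 ± 0.27). The list of the androgen receptor and 5-alpha reductases had 1 of 5 called higher, Srd5a2 (3.58 ± 1.15), which DESeq2 did not call. Ltf, Pax8 and Srd5a2 passed the filter on low counts only through the Q175 males, so nothing is read from their calls. Over all genes, edgeR called 11.9% higher and 12.9% lower between the male groups.

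In WT male 2 ciliated, epithelial and germ cell transcripts were present with few counts of the 10 genes. It held 995 counts of Foxj1, the regulator of motile cilia, and 562 of Prm2, a sperm chromatin protein, against 219 to 3243 of Foxj1 and 19 to 77 of Prm2 in Q175 males. Its Epcam, an epithelial surface protein, was at 471, against 719 to 2247 in Q175 males and 3 to 120 in the other WT males. The 10 genes summed to 0.854 CPM in this library, the lowest of the 8 males.

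**Figure D4:**
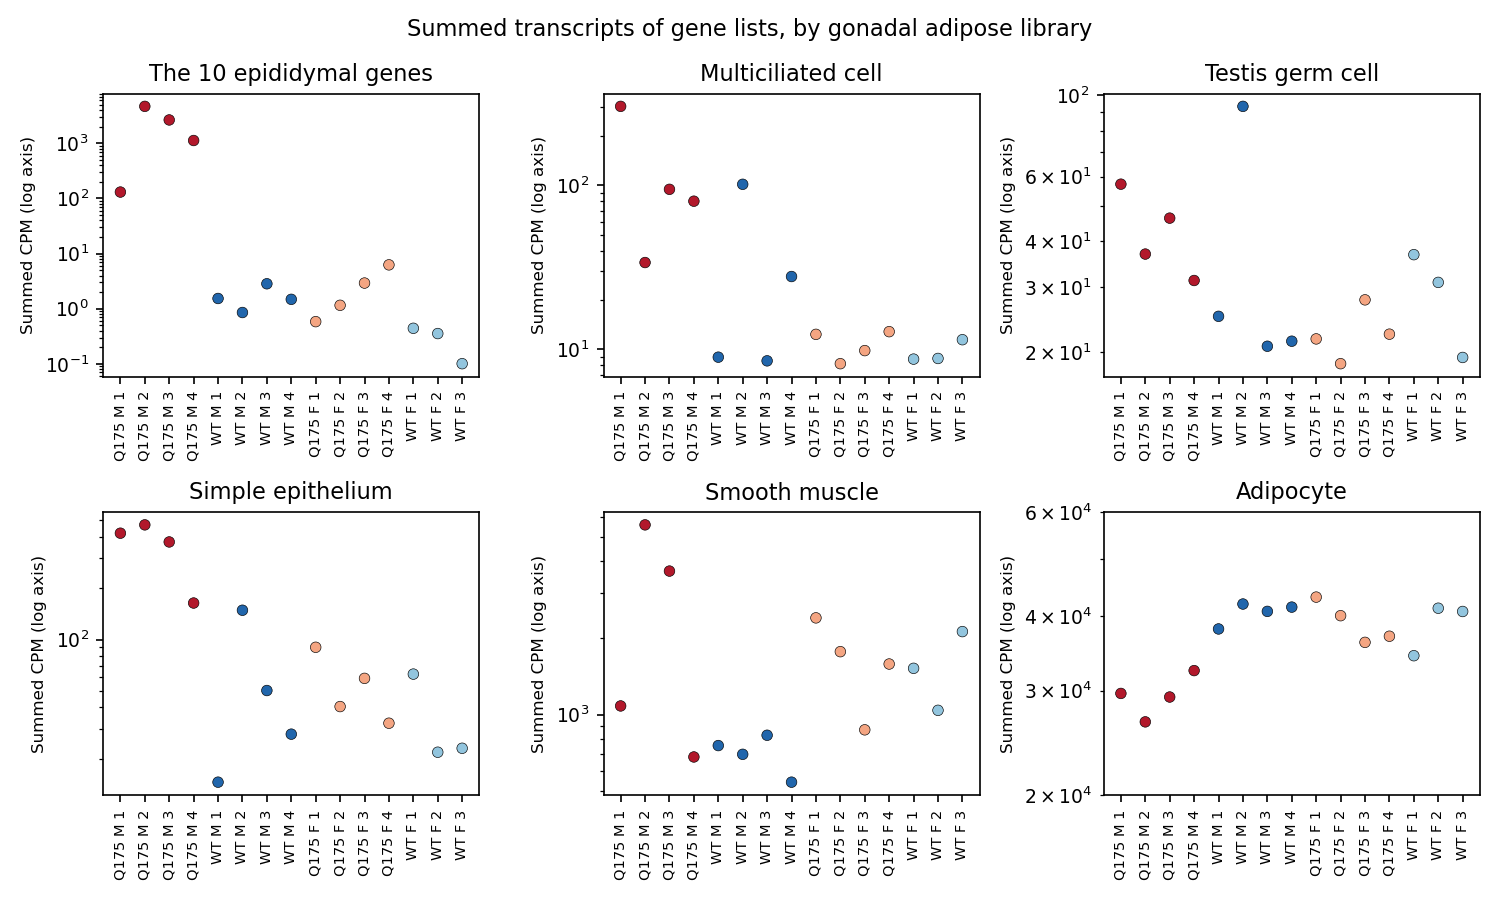
Summed CPM on log axes, in each of the 15 gonadal fat libraries, of the 10 genes and of 5 marker lists, with 1 point a library, M for male and F for female, Q175 before WT within each sex. The 4 Q175 males are highest for the 10 genes and for simple epithelium, Q175 males 2 and 3 for smooth muscle, and lowest for adipocyte markers, while WT male 2 is the highest for germ cell markers and the 2nd highest for multiciliated markers.

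Between the sexes the same lists were called as follows. Multiciliated markers had 10 of 11 higher in males, simple epithelium 12 of 16 (1 lower) and germ cell 12 of 19 (1 lower). Adipocyte had 0 of 12 (6 lower), mesothelium 0 of 9 (5 lower), smooth muscle 0 of 12 (2 lower) and lymph node 2 of 12. Ovary had 2 of 4 higher, oviduct and uterus 3 of 6 (1 lower), and testis somatic 1 of 6 (1 lower). Seminal vesicle and prostate had 1 of 5 higher, and the androgen receptor and 5-alpha reductase list 2 of 5 (1 lower). The shares over all genes were 16.6% higher and 15.1% lower. Genes such as Foxj1, Ap1m2 and Prm2, at most at 6, 8 and 1 counts in a female, passed the filter only through males. Nothing is read from the numbers called in their lists. Sult1e1, the estrogen sulfotransferase, was 10.48 ± 0.24 log2 higher in males. Pgr, the progesterone receptor, was -4.66 ± 0.67. Sult1e1, with 0 to 6 counts in females, and Pgr, with 0 to 7 in males, likewise passed only through the other sex.

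Outside gonadal fat, 7 of the 10 genes had no library above 10 counts in the 158 others. Lcn5 and Ovch2 had 0 counts in all 158. Serpina1f reached 2, Lcn8 3, Lcn9 2, Adam7 10 and Cst8 10. In intestinal fat, the nearest tissue in kind, the 10 genes stayed at or under 19 counts, with Crisp1 at most 13 and Cst8 at most 10 in a library. In brown fat 8 of the 10 had 0 counts in all 16 libraries, Cst8 had 1 count in a single library, and Rnase10 had 1 to 17.

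The genes found elsewhere were Spink8, Rnase10 and Crisp1. Spink8 was a transcript of the hippocampus, with 464 to 534 counts in Q175 males, 594 to 624 in WT males, 499 to 823 in Q175 females and 456 to 632 in WT females, and of the corpus callosum, with 20 to 421 counts. Its highest FPKM was 35.8 in hippocampus and 618 in gonadal fat. Rnase10 was highest in skin, at up to 136 counts, and it was at 0 counts in 24 of the 158 libraries. Crisp1 had 813 and 491 counts in skin WT males 1 and 2, which come from the animals of gonadal WT males 3 and 4, against 0 to 6 in the other 12 skin libraries. In those 2 skin libraries Spink8 had 24 and 16 counts, and Serpina1f 2 and 2.

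**Figure D5:**
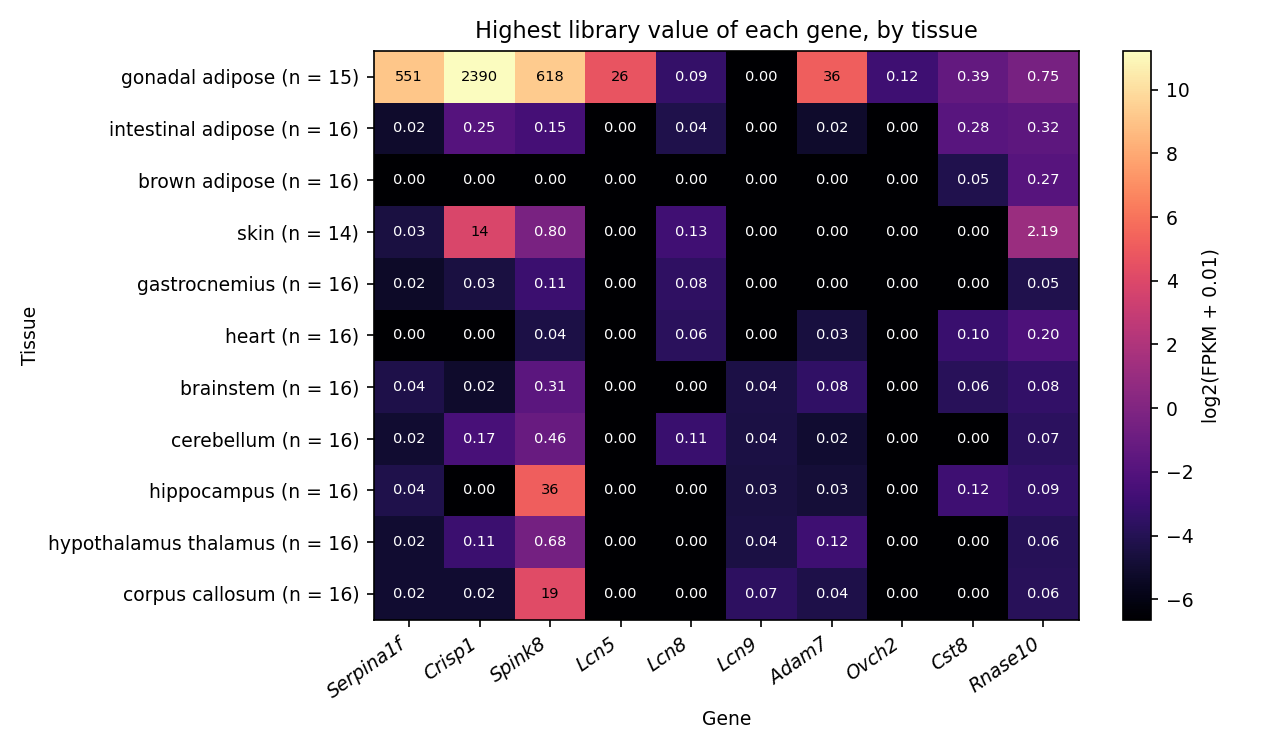
Highest FPKM of each of the 10 genes in any library of each tissue, printed in each cell and coloured on a log2 scale, with gonadal fat in the top row. Serpina1f, Crisp1, Spink8, Lcn5 and Adam7 are highest in gonadal fat, Spink8 also appears in hippocampus (35.8 FPKM) and corpus callosum (18.6 FPKM), Crisp1 in skin (14.2 FPKM) and Rnase10 in skin (2.19 FPKM).

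For tract tissue carried with the fat, the measured facts are these. The high genes are of the epididymis. Summed over the 10 genes they were higher in each of the 4 Q175 males than in every other gonadal library, with Lcn5 mainly in Q175 male 1, and Crisp1, Serpina1f and Spink8 had low counts in WT males and some Q175 females. Summed epithelial and other epididymal transcripts were also higher in the 4 Q175 males than in the 4 WT males, in amounts that differed from animal to animal. The summed adipocyte level was lower. The 10 genes and the list of 47 were chosen with these data known, so nothing is read from their sums. WT male 2 held 995 counts of Foxj1, 471 of Epcam and 562 of Prm2, with the lowest sum of the 10 genes among males. With edgeR no multiciliated, germ cell or testis somatic gene was called between the male groups. Smooth muscle transcripts were high in Q175 males 2 and 3, while in Q175 male 4 they were at 682 CPM, within the WT male range of 543 to 830 CPM. Their sum was 871 to 2399 CPM in Q175 females and 1039.5 to 2119 CPM in WT females, so it is not particular to males. Whether tissue of the duct was carried with the fat, or the genes were made by cells of the fat, cannot be told apart in these libraries. Genotype, housing, colony and the dissection of each group cannot be told apart in them either.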

How the data were processed

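Polyadenylated RNA was measured in 173 libraries of 11 tissues, 15 of them gonadal fat. The authors deposited a table of estimated counts, unscaled, with 1 row an Ensembl gene and 1 column a library. The authors also deposited FPKM values, scaled to gene length and library total. Per the submitters' processing notes CASAVA 1.8.2 was used. How reads were aligned and counted, and on which build and annotation, is not given in the sources used here, and the labels do not say whether strand was kept. Symbols were given to 36639 of 38561 identifiers (95.0%). The members, gene lists and tests were chosen with earlier results of these data known.

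CPM and log2 fold changes were computed from the deposited counts. Counts were rounded and tested with edgeR 4.0.16 (R 4.3.3): TMM, filterByExpr by sex and genotype, robust quasi-likelihood F-tests on 4 group means over all 15 gonadal libraries, and Benjamini-Hochberg adjustment over 17438 genes. P-values measure the spread between libraries, which no source ties to separate litters. Named genes are the 10 members, up to 4 genes with the smallest p per list and contrast, and the 10 genes most like the members over the 8 male libraries (log2(CPM + 0.1), at least 1 CPM in at least 3 libraries). Gpx5, Spag11b, Lcn6, Lcn10, Wfdc13, Crisp4, Ly6g5b, Teddm2, Foxj1, Epcam and Actg2 and other marker genes outside this rule, and Xist, Ddx3y, Htt and Adipoq as checks, were named after their values were seen. Tested on simulated counts for Q175 males against WT males, with 17438 genes, the fit recovered 38 of 100 changes of 1.5-fold and 49 of 100 of 2-fold, with 5 false calls. Alternatives used DESeq2 1.42.0, limma 3.58.1 on log2(FPKM + 1), RLE factors, no filter, other terms and left-out libraries. Figures were drawn with matplotlib 3.10.9.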

Additional observations from a re-analysis of the deposited data

Results flagged for a closer look

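Of 59 sets of group values in gonadal fat, 4 had a library far from the others of its group. The rate of about 1 in 20 set for this rule assumes normally distributed values, which was not checked for these CPM. Some sets are of genes chosen from these same values, so nothing is read from the count. Lcn5 was 18.3 CPM in Q175 male 1, far above the other 3 Q175 males. Cst8 was 0.155 CPM in WT male 2, the one WT male with a count of it, so it had to be flagged. The summed testis germ cell markers were 93.2 CPM in WT male 2, against 20.8 to 25.03 CPM in the other WT males. The summed ovary list was 4.68 CPM in WT male 3, the lowest of its group.

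Skin was not part of the comparisons, and Crisp1 was found there at 813 estimated counts in WT male 1 and 491 in WT male 2, against at most 6 in the other skin libraries.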

How the results depend on the processing

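The differences between male groups kept their direction for each member that could be tested under every alternative run for them (Lcn5 did not pass the filter on low counts in some, such as male libraries only): 140 of the values kept their side of the threshold and 5 lost the call, 4 of them with the L code as a term (Serpina1f, Crisp1, Lcn5 and Adam7) and Lcn5 without WT male 3. Between the sexes 119 stayed, 19 gained a call and 2, Crisp1 and Spink8 with the L code, lost it.

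Between male groups 4335 genes were called, against 922 with the L code as a term, 2 with the summed other epididymal transcripts as a term and 924 without both Q175 males 2 and 3, an alternative added after seeing the data. Leaving out 1 library gave 2539 to 5909 (2769 without Q175 male 2, 2539 without Q175 male 3, 2567 without WT male 1). Of the members 5 were called, against 1 with the L code, and 4 to 5 with 1 library left out. Other epididymal genes called were 16, with 11 to 18 when 1 library was left out. The summed epididymal level nearly coincides with genotype in males, so the 2 cannot be told apart there.

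Between the sexes 5518 genes were called, against 2845 with the L code and 9 with the summed epididymal term, and 4546 to 6037 with 1 library left out. Members called were 2, against 5 with DESeq2, 4 with limma on FPKM, 5 with the replicate block, 0 with the L code, 5 with additive terms, 4 without both Q175 males 2 and 3 and 5 without both Q175 males 1 and 4, and 2 to 3 with 1 library left out. Other epididymal genes called were 13, against 8 with the L code and 7 to 13 with 1 library left out (7 without WT male 2). The cause of these moves was not tested. Of the 10 most similar genes, 1 was shared when all 15 libraries were used and 6 with log2(CPM + 1).

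The replicate numbers do not pair the samples (correlations of same-numbered deviations from -0.397 to 0.167), and with the replicate block 4082 genes were called between male groups and 5084 between the sexes.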
